A study of Mus musculus with 6 samples.

Results

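The ZFP36 and BTG/TOB genes encode proteins that mark mRNAs for decay, and 7 of the 8 genes listed for the family pair (Zfp36, Zfp36l1, Zfp36l2, Btg1, Btg2, Btg3, Tob1 and Tob2) were measured here. Members were taken by symbol, as array features that the platform annotation assigns to exactly 1 of these genes, which gave 7 features of 34760 on the array. Each of the 7 genes had 1 feature. Btg3 had 2 features, but the annotation gives them jointly to Btg3 and Gm7334, so no value was assigned to it. Transcript levels came from C57Bl/6 mouse embryonic stem cells (ESCs) with stable expression of GRgp-Y118F, a chimeric receptor present in the cells of all 3 groups. Receptors of this kind place the cytoplasmic part of gp130 behind the extracellular portion of the receptor for GCSF (granulocyte colony-stimulating factor), and Y118F removes the gp130 tyrosine through which SHP2 and ERK are engaged. The arrays comprised 2 labelled GCSF, from cells given GCSF for 1 h, 2 labelled LIF/PD, from cells given leukaemia inhibitory factor (LIF) and 1 uM of the MEK inhibitor PD0325901 for 1 h, and 2 labelled as untreated control. The design text puts 6 h without serum before the treatments and does not say whether the control cells went through it. The cytokines were homemade and their doses are not given in the sources used here.

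ZFP36 proteins (tristetraprolin, encoded by Zfp36, and its paralogues encoded by Zfp36l1 and Zfp36l2) carry a tandem pair of CCCH zinc fingers that bind AU-rich elements in 3' untranslated regions and bring the CCR4-NOT deadenylase complex to those mRNAs. BTG and TOB proteins share an N-terminal domain that binds the deadenylase subunits CNOT7 and CNOT8, and the TOB proteins also bind poly(A)-binding protein, so that poly(A) tails are shortened. Several of these genes, Zfp36 and Btg2 among them, are known as immediate early genes that growth factors and cytokines induce quickly, and Btg2 is also a p53 target.

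The promoters of Zfp36 and Btg2, the 2 members that rose in the arrays labelled GCSF, are shown with that of Btg1, the closest relative of Btg2, because the same motifs were searched in each. They are the 250 bases before the annotated start, from RefSeq on GRCm38.p6, written on the strand of the gene, and capitals mark the letters that matched a motif. Zfp36 lies on the minus strand at chr7:28379229-28379478, Btg2 on the minus strand at chr1:134079156-134079405, and Btg1 on the plus strand at chr10:96616751-96617000.
Zfp36: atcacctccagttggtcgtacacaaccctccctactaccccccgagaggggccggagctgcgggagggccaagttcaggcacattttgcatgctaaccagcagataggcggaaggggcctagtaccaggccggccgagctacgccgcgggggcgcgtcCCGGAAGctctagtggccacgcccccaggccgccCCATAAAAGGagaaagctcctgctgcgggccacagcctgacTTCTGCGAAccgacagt
Btg2: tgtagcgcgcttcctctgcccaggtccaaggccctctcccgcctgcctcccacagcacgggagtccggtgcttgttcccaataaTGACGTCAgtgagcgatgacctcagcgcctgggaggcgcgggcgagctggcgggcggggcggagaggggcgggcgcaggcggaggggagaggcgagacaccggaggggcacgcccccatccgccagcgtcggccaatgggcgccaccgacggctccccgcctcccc
Btg1: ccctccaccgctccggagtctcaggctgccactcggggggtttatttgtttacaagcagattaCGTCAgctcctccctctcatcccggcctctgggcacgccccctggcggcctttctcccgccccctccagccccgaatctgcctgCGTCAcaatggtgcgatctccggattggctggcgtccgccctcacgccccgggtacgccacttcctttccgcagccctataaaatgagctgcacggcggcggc

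The motifs searched on both strands were the STAT motif TTCNNNGAA, the cyclic AMP response element (CRE) TGACGTCA and its short core TGACG, the ETS core CCGGAAG, the AP-1 site TGANTCA, and the CArG box of serum response factor and the NF-kB site by name. The Zfp36 window held 3 matches that did not overlap each other: CCGGAAG starting 92 bases before the start, a CArG box starting 58 bases before it, and the STAT motif as TTCTGCGAA starting 17 bases before it. These motifs were present in 6.91% (ETS core), 1.47% (CArG box) and 7.02% (STAT motif) of 32851 promoter windows of the same length. The Btg2 window held the full CRE, starting 166 bases before the start, which includes the short core on each strand. The full CRE occurred in 1.55% of all windows and the short core in 17.8%. The Btg1 window held the short core at 2 places and none of the other motifs. Of the remaining members in the table, Tob1 had the short core at 1 place, Zfp36l1 had 1 AP-1 match (6.75% of windows), 1 of the 2 Btg3 windows had an NF-kB match, which reads on both strands (7.25% of windows), and Tob2 had no match. In all, 7 of the 8 genes had a promoter in the table. Zfp36l2, the member that fell in the arrays labelled GCSF, had none there and was not searched. A match describes letters only.

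The values are log2 intensities, and differences between groups are log2 differences from a single limma fit across 16912 tested features and all 6 arrays, with its standard error (SE, n = 2 arrays per group). A feature was called at a Benjamini-Hochberg adjusted p under 0.05, and all 7 member features passed the filter on dim features. Arrays of the same group correlated at 0.997 to 0.998 (Pearson's r, across features), and pairs from different groups at 0.995 to 0.998. As a check of the labels, Socs3, the feedback inhibitor that STAT3 induces, was higher by 3.13 ± 0.07 in the GCSF arrays and by 2.62 ± 0.07 in the LIF/PD arrays than in control arrays. The ERK feedback genes Dusp6 and Spry4 were lower than control by -1.56 ± 0.04 and -1.83 ± 0.06 in the GCSF arrays, against 0.03 ± 0.04 and 0.05 ± 0.06 in the LIF/PD arrays, where the MEK inhibitor is labelled to be. Egr1, an ERK-dependent immediate early gene, followed the same split, with -1.49 ± 0.08 in the GCSF arrays and -0.18 ± 0.08 in the LIF/PD arrays, and Stat3 was at 0.61 ± 0.05 and 0.24 ± 0.05. These ERK genes go against the labels of the GCSF and LIF/PD groups, so every direction below belongs to the arrays that carry a label and not to an agent that was verified. Among the markers, all 10 of ESCs were above the filter, and their mean level lay between 11.75 and 11.79 in the 4 treated arrays, against 11.72 and 11.71 in the control arrays. Fibroblast markers were also present, at mean levels of 9.40 to 9.43 in the treated arrays and 9.39 and 9.42 in the control arrays, with 9 of 10 above the filter. Of the 10 ESC markers 2 rose in the GCSF arrays against control (Tdgf1, 0.30 ± 0.03, and Fgf4, 0.29 ± 0.03), where 0.804% of all features did. Of these 10 markers 0 fell by limma, and 6 had an unadjusted p under 0.05 in either direction, against 12.1% of all features. The lowest was Utf1 at -0.16, with 12.16 and 12.14 in the GCSF arrays and 12.31 and 12.30 in the control arrays. Against the LIF/PD arrays 1 of the 10 was higher (Tdgf1, 0.17 ± 0.03) and 1 lower (Utf1, -0.23 ± 0.03), where 0.846% of all features were called. In the other lists 1 of 9 fibroblast markers (Col3a1, 0.29 ± 0.05) and 1 of 6 of primitive endoderm (Lama1, 0.43 ± 0.05) rose in the GCSF arrays against control. By limma 1 of 6 of trophoblast (Tfap2c, 0.74 ± 0.06), 2 of 5 of neuroectoderm (Pax6, 0.54 ± 0.07, and Olig2, 0.48 ± 0.06) and 0 of 4 of mesoderm also rose there. At an unadjusted p under 0.05 these lists had 2, 1, 3, 2 and 0 markers, in this order and in either direction, against 12.1% of all features. By limma 0 of these markers fell, where 0.367% of all features did, but each list also held values below control. The lowest differences were -0.10, -0.01, -0.23, -0.16 and -0.10 in the same order. The list medians were 0.02, 0.03, -0.01, -0.03 and -0.03, against 0.01 over all tested genes. Against the LIF/PD arrays 1 primitive endoderm marker was higher in the GCSF arrays. In the LIF/PD arrays against control 0 markers of any list passed, where 0.065% of all features did. Here 4 ESC markers and, in the same order, 1, 2, 1, 2 and 0 others had an unadjusted p under 0.05. The share of all features was 6.59%. Tfap2c was at 9.67 and 9.67 in the LIF/PD arrays, against 9.32 and 9.16 in control. Pax6 was at 8.24 and 8.16 against 7.77 and 7.83, and Olig2 at 8.76 and 8.89 against 8.51 and 8.47. The part of all these markers in the members' differences was not tested. In bulk RNA, fewer cells of a type and less RNA per cell cannot be told apart.

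In the GCSF arrays Btg2 and Zfp36 rose and Zfp36l2 fell, while the other 4 measured members did not pass. By its labels, the comparison asks which transcripts follow stimulation of the chimeric receptor. The 3 calls among 7 members compare with 198 calls among all tested features, or 1.17%, of which 0.804% were higher and 0.367% lower. The members, and the lists below, were chosen with earlier results of these data known. Counts set beside such shares therefore describe the genes and do not test them as a set. At an unadjusted p under 0.05 there were 5 of 7 members, against 12.1% of all features. The arrays of the GCSF and control groups did not overlap for 6 of the 7 members, but they also did not overlap for 41.8% of all tested features. The median log2 difference of the 7 members was 0.14, against 0.01 over all tested features, and the median absolute difference was 0.17, against 0.06.

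**Figure D1:**
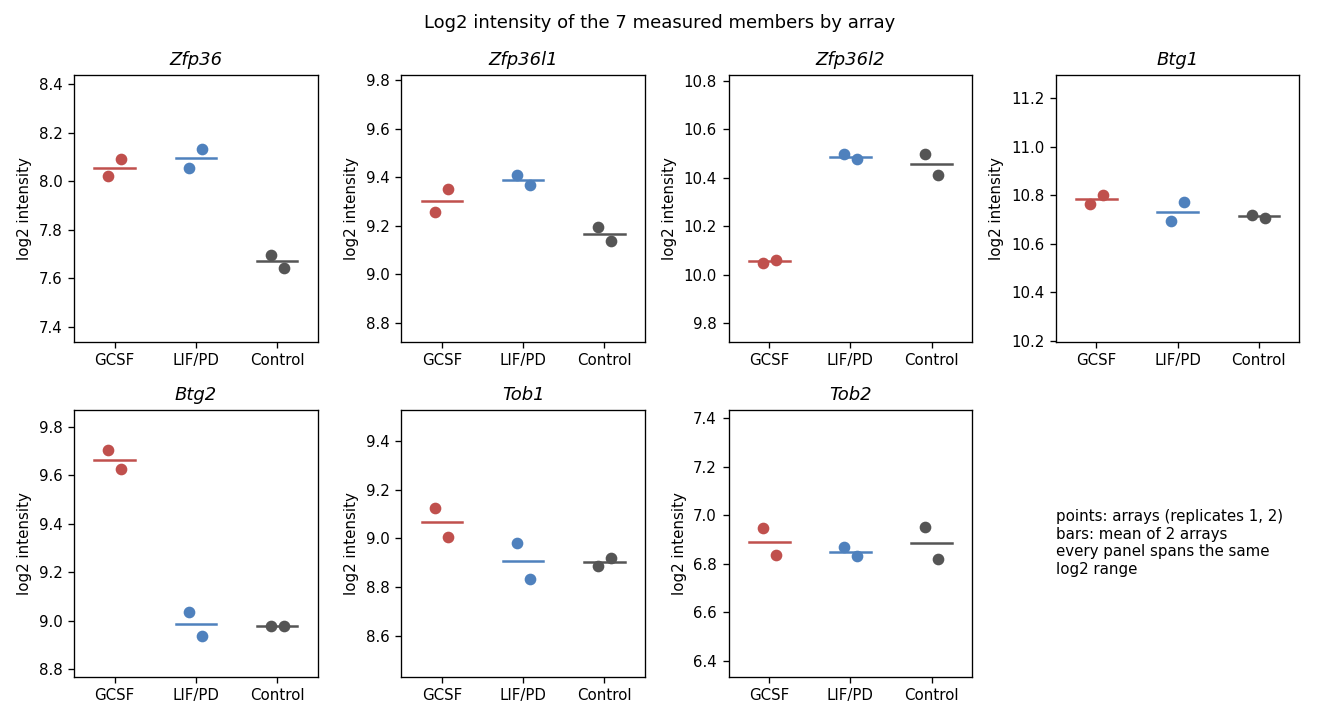
Log2 intensity of each measured member in every array, with the groups GCSF, LIF/PD and Control from left to right, points for arrays and bars for the mean of 2 arrays; every panel covers the same log2 span. Btg2 stands high and Zfp36l2 low in the GCSF arrays alone, at 9.70 and 9.63 and at 10.05 and 10.06, whereas Zfp36 is high in both treated groups.

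Btg2, an antiproliferative adaptor of the deadenylases (feature 10357875), had log2 intensities of 9.70 and 9.63 in the GCSF arrays, 9.04 and 8.94 in the LIF/PD arrays, and 8.98 and 8.98 in the control arrays. Both GCSF arrays lay above all 4 other arrays, and the control values fell inside the range of the LIF/PD values. Btg2 rose 1.61-fold in the GCSF arrays (log2 difference 0.69 ± 0.05, 95% interval 0.57 to 0.81, limma adjusted p = 0.000427), the 26th smallest p among the tested features. Its call held with any of the 6 arrays left out.

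Zfp36l2, whose product is an AU-rich element binding protein known in mouse for roles in blood cell progenitors and in oocyte maturation (feature 10453272), was at 10.05 and 10.06 in the GCSF arrays, 10.50 and 10.48 in the LIF/PD arrays, and 10.50 and 10.41 in the control arrays. Both GCSF arrays lay below all 4 others, whose values overlapped. Zfp36l2 fell by 0.40 on the log2 scale in the GCSF arrays (SE 0.04, 95% interval -0.49 to -0.30, limma adjusted p = 0.00220), to 0.758 of the control level. This call also held with any array left out. It was not made when limma tested against a change of at least 1.2-fold (adjusted p = 0.929), where Btg2 was still called.

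Zfp36, which encodes tristetraprolin (feature 10561453), was at 8.02 and 8.09 in the GCSF arrays, 8.06 and 8.13 in the LIF/PD arrays, and 7.70 and 7.64 in the control arrays. The 4 treated arrays all lay above both control arrays and the treated groups overlapped. It rose 1.31-fold in the GCSF arrays (0.39 ± 0.06, 95% interval 0.24 to 0.53, limma adjusted p = 0.0289). That call rested on all 6 arrays: the adjusted p was 0.0905 and 0.115 without GCSF replicates 1 and 2, 0.0648 and 0.0648 without LIF/PD replicates 1 and 2, and 0.136 and 0.169 without control replicates 1 and 2, while the log2 difference stayed between 0.35 and 0.42. It was also lost, at adjusted p = 0.143, when the median of the array's control block was a covariate; that median was 6.84 and 6.71 in the GCSF arrays, against 6.66 and 6.71 in the control arrays.

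Zfp36l1, the third AU-rich element binding protein of the family (feature 10401238), had values of 9.26 and 9.35 in the GCSF arrays, 9.41 and 9.37 in the LIF/PD arrays, and 9.20 and 9.14 in the control arrays. The LIF/PD arrays were highest and the control arrays lowest, without overlap between any 2 groups. Its difference in the GCSF arrays was 0.14 ± 0.05 (limma adjusted p = 0.337), which did not pass.

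Among the remaining BTG/TOB genes no difference from control passed in the GCSF arrays. Tob1, whose product links the deadenylases to poly(A)-binding protein (feature 10380381), was at 9.13 and 9.01 in the GCSF arrays, 8.98 and 8.83 in the LIF/PD arrays, and 8.88 and 8.92 in the control arrays. The GCSF arrays lay above the others, with a difference from control of 0.17 ± 0.07 (limma adjusted p = 0.361). Btg1, the paralogue of Btg2 (feature 10365971), was at 10.77 and 10.80 in the GCSF arrays, 10.69 and 10.77 in the LIF/PD arrays, and 10.72 and 10.71 in the control arrays. Its 95% interval against control ran from -0.02 to 0.16, which lies wholly below the interval of Btg2 on the log2 difference scale. Tob2, the paralogue of Tob1 (feature 10430770), was at 6.95 and 6.83 in the GCSF arrays, 6.87 and 6.83 in the LIF/PD arrays, and 6.95 and 6.82 in the control arrays. All 3 groups overlapped for Tob2, and its difference was 0.01 ± 0.08. Tob2 was dim, with a mean over all arrays of 6.88, close to the filter at 6.70.

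**Figure D2:**
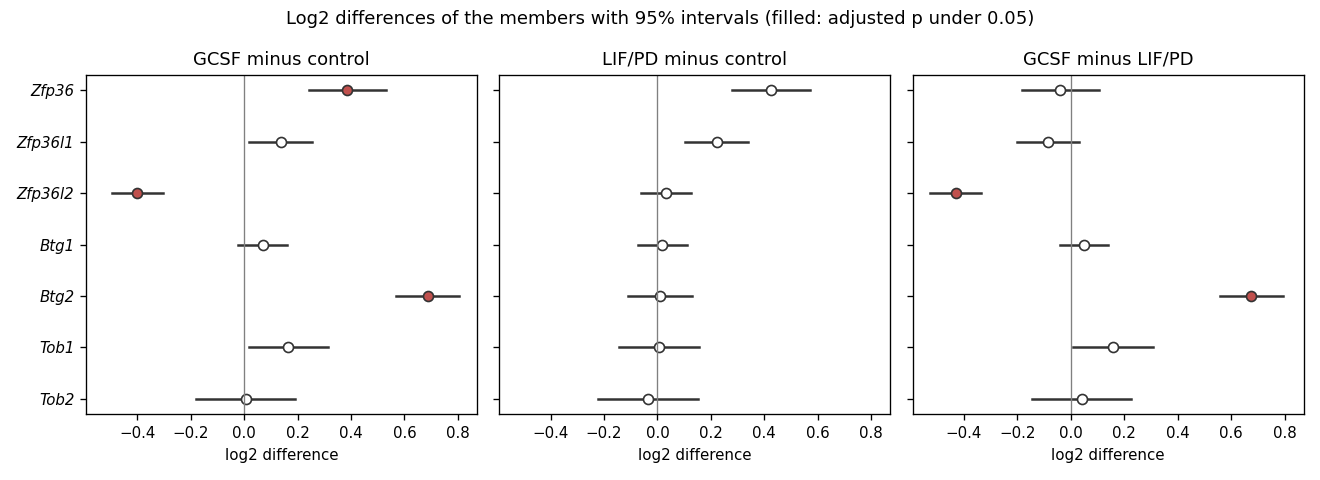
Log2 differences of the 7 measured members (points) with 95% intervals (lines) for GCSF minus control, LIF/PD minus control and GCSF minus LIF/PD; filled points passed an adjusted p under 0.05. Btg2 is at 0.69, 0.01 and 0.68, Zfp36l2 at -0.40, 0.03 and -0.43, and Zfp36 at 0.39, 0.43 and -0.04.

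No member passed in the LIF/PD arrays against control, a comparison that by its labels addresses LIF with MEK blocked. The 0 calls by limma compare with 11 among all tested features, or 0.065%, and 2 of 7 members had an unadjusted p under 0.05, against 6.59% of all features. These 2 were Zfp36 (0.43 ± 0.06, 95% interval 0.28 to 0.57, limma adjusted p = 0.110) and Zfp36l1 (0.22 ± 0.05, 95% interval 0.10 to 0.34, limma adjusted p = 0.443). They were also the 2 members whose LIF/PD and control arrays did not overlap, against 38.4% of all features. Zfp36 had the 19th smallest p in this comparison. The other 5 members lay within 0.04 of control in either direction on the log2 scale, Zfp36l2 at 0.03 ± 0.04, Btg1 at 0.02 ± 0.04, Btg2 at 0.01 ± 0.05, Tob1 at 0.01 ± 0.07 and Tob2 at -0.04 ± 0.08. For Btg2 the 95% interval ran from -0.11 to 0.13. The LIF/PD and GCSF comparisons use the same 2 control arrays.

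Set directly against each other, the GCSF and LIF/PD arrays differed in Btg2 and Zfp36l2. Btg2 was 1.60-fold higher in the GCSF arrays than in the LIF/PD arrays (0.68 ± 0.05, limma adjusted p = 0.00104), and Zfp36l2 was lower by -0.43 ± 0.04 (limma adjusted p = 0.00287). These 2 calls among 7 compare with 143 among all tested features, or 0.846%. At an unadjusted p under 0.05 there were 3 of 7 members, Tob1 being the third (0.16 ± 0.07, limma adjusted p = 0.391), against 11.8% of all features. Arrays did not overlap for 4 of 7 members, against 41.5% of all features. Zfp36 differed by -0.04 ± 0.06, with a 95% interval from -0.18 to 0.11, so its level was not shown to differ between the treatments, and an interval of this width does not show that it was equal. The interval of Zfp36l1 ran from -0.20 to 0.03. The call of Zfp36l2 was lost without LIF/PD replicate 1 (-0.42 ± 0.05, adjusted p = 0.0565) and with the control block median as a covariate (-0.39 ± 0.06, adjusted p = 0.122), whereas that of Btg2 held in each of these fits.

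By group, then, the order of levels for Btg2 was GCSF, LIF/PD, control, with LIF/PD and control not separable. For Zfp36l2 it was LIF/PD, control, GCSF, with LIF/PD and control not separable. For Zfp36 it was LIF/PD, GCSF, control, with the treated groups not separable. Zfp36 passed in the GCSF arrays against control, a call that rested on all 6 arrays. It did not pass in the LIF/PD arrays against control (limma adjusted p = 0.110). For Zfp36l1, Btg1, Tob1 and Tob2 no pair of neighbouring groups passed the test.

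Among 192 features of other named genes called in any of the 3 comparisons, the genes whose values over the 6 arrays were most like a called member were identified by Pearson's r. The arrays are 3 groups of 2, so these coefficients describe mainly the order of the groups. Nearest to Zfp36 were Junb, an AP-1 subunit gene (r = 0.994), the homeobox gene Gbx2 (r = 0.978) and the WNT pathway gene Dact1 (r = 0.974). Their differences from control were 0.59, 0.66 and 0.54 in the GCSF arrays and 0.58, 0.68 and 0.52 in the LIF/PD arrays, so each had nearly the same value in both, as Zfp36 did. Nearest to Btg2 were Rhob, a small GTPase gene (r = 0.996), Apobec3, a cytidine deaminase gene (r = 0.989), and Dnmbp (r = 0.987), with differences from control of 1.28, 0.30 and 0.25 in the GCSF arrays and -0.02, 0.02 and 0.04 in the LIF/PD arrays. Nearest to Zfp36l2 were the cytokine gene Mif (r = 0.993), the chemokine gene Ccl7 (r = 0.988) and the amino acid transporter gene Slc7a7 (r = 0.988). Those 3 genes were at -0.16, -0.69 and -0.24 in the GCSF arrays and at 0.03, 0.11 and 0.04 in the LIF/PD arrays against control.

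Genes of the wider mRNA decay pathway were described through 7 lists of 115 entries, of which 108 were on the array with a symbol of their own and 100 were tested. In the GCSF arrays 1 rose and 3 fell against control, against 0.804% of all tested features called higher and 0.367% called lower. An unadjusted p under 0.05 was found for 18 of the 100, against 12.1% of all features. The median of the 100 tested genes was 0.03, against 0.01 over 12949 genes.

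None of the enzymes and complexes that carry out decay passed the limma test in the GCSF arrays, where 1.17% of all features did, and counts of 0 in lists of this size lie near that share. At an unadjusted p under 0.05 the counts given next stand against 12.1% of all features. Of 15 deadenylase genes of the CCR4-NOT and PAN complexes 0 passed, 2 at an unadjusted p under 0.05, with differences between -0.07 and 0.13. The catalytic subunit genes Cnot7, whose product BTG and TOB proteins bind, and Cnot6 were at 0.10 ± 0.04 (adjusted p = 0.307) and 0.13 ± 0.05 (adjusted p = 0.318). Of 6 genes for poly(A)-binding proteins and their partners 0 passed and 2 had an unadjusted p under 0.05, and the termination factor gene Gspt1 and Paip2b, which encodes an inhibitor of poly(A)-binding protein, were at 0.09 ± 0.03 and 0.10 ± 0.04. Of 19 genes of decapping and 5' to 3' decay 0 passed and 3 had an unadjusted p under 0.05. The helicase gene Ddx6 was at 12.30 and 12.28 in the GCSF arrays, 12.17 and 12.14 in the LIF/PD arrays and 12.11 and 12.19 in the control arrays (0.15 ± 0.04 against control, adjusted p = 0.142), and Lsm3 was at -0.10 ± 0.03. Of 16 exosome and SKI genes 0 passed and 4 had an unadjusted p under 0.05, with the ribosome rescue factor gene Pelo at -0.26 ± 0.10 and the exonuclease gene Dis3 at 0.09 ± 0.04. Among 23 other sequence-specific factors 0 passed and 1 had an unadjusted p under 0.05, with Hnrnpd, which encodes the AU-rich element binding protein AUF1, at 0.14 ± 0.05 and the endonuclease gene Zc3h12a at -0.16 ± 0.08. The family relative Zfp36l3, known from mouse placenta, was at -0.03 ± 0.08, and Btg4, an oocyte gene, lay below the filter at 4.45 and 4.47 in the GCSF arrays and 4.68 and 4.43 in the control arrays.

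**Figure D3:**
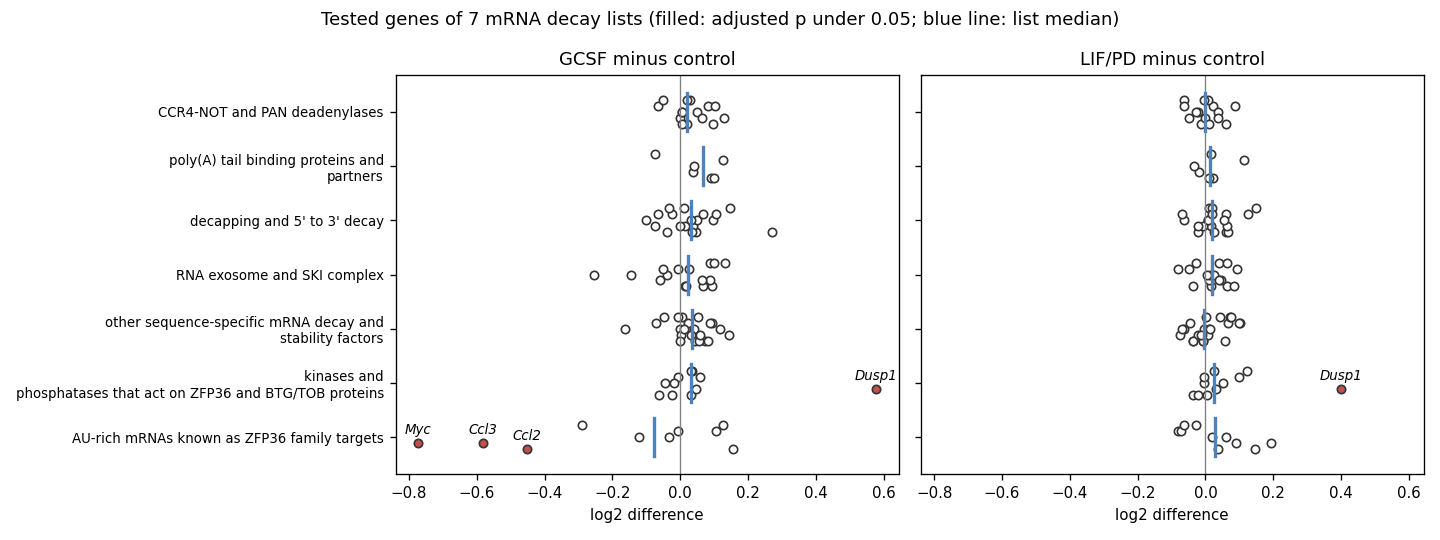
Log2 differences of the 100 tested genes of 7 mRNA decay lists, for GCSF minus control on the left and LIF/PD minus control on the right; points are genes, filled where the adjusted p was under 0.05, and the blue line is the list's median. Myc, Ccl3 and Ccl2 stand at -0.77, -0.58 and -0.45 and Dusp1 at 0.58 in the GCSF comparison, and in the LIF/PD comparison Dusp1 at 0.40 is the 1 filled point.

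Of 11 genes whose products act on ZFP36 or BTG/TOB proteins, Dusp1 alone passed. It encodes a phosphatase that inactivates p38, the kinase pathway through which MK2 phosphorylates and restrains tristetraprolin. Dusp1 was at 10.86 and 10.88 in the GCSF arrays, 10.70 and 10.69 in the LIF/PD arrays, and 10.28 and 10.31 in the control arrays, with no overlap between any 2 groups. It rose by 0.58 ± 0.03 in the GCSF arrays (limma adjusted p = 0.000147) and by 0.40 ± 0.03 in the LIF/PD arrays (limma adjusted p = 0.00791). The difference between the treatments, 0.18 ± 0.03, did not pass (limma adjusted p = 0.0702). In the LIF/PD arrays Dusp1 was the 1 gene of the 100 tested to pass, against 0.065% of all features, and 5 had an unadjusted p under 0.05, against 6.59% of all features. Its adjusted p there was 0.189 and 0.125 without LIF/PD replicates 1 and 2, 0.147 and 0.0844 without control replicates 1 and 2, and 0.0999 without an intensity trend. Prmt1, an arginine methyltransferase gene whose product binds BTG proteins, was at -0.06 ± 0.04 in the GCSF arrays.

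Of 17 AU-rich mRNAs known as targets of ZFP36 proteins 10 were tested, and 3 of these fell and 0 rose in the GCSF arrays, against 0.367% of all features called lower and 0.804% called higher. At an unadjusted p under 0.05 there were 5 of the 10, against 12.1% of all features, and the 2 of them that were not called were Fos (-0.29 ± 0.09, limma adjusted p = 0.260) and Vegfa, which was higher (0.13 ± 0.05, limma adjusted p = 0.335). The median of the 10 was -0.08, against 0.01 over all tested genes. Myc, the growth-promoting transcription factor gene, was at 9.80 and 9.84 in the GCSF arrays, 10.68 and 10.69 in the LIF/PD arrays, and 10.54 and 10.64 in the control arrays, a difference from control of -0.77 ± 0.04 (limma adjusted p = 9.43e-05). The monocyte chemokine gene Ccl2 was at 10.39 and 10.38 in the GCSF arrays, 10.94 and 10.81 in the LIF/PD arrays, and 10.84 and 10.83 in the control arrays (-0.45 ± 0.05, limma adjusted p = 0.00220). Another chemokine gene, Ccl3, was at 7.60 and 7.53 in the GCSF arrays, 8.43 and 8.24 in the LIF/PD arrays, and 8.22 and 8.07 in the control arrays (-0.58 ± 0.08, limma adjusted p = 0.0148). This call of Ccl3 was lost without GCSF replicate 1 (adjusted p = 0.0662), GCSF replicate 2 (0.0754) or control replicate 1 (0.137), and with the control block median as a covariate (0.126). For all 3 the GCSF arrays lay below the other 4. When limma tested against a change of at least 1.2-fold, Myc was still called and Ccl2 (adjusted p = 0.409) and Ccl3 (0.492) were not. Against the LIF/PD arrays, the GCSF arrays were lower by -0.86 ± 0.04 for Myc, -0.49 ± 0.05 for Ccl2 and -0.77 ± 0.08 for Ccl3, each of which passed. These 3 calls among 10 compare with 0.846% of all features. At an unadjusted p under 0.05 there were 7 of the 10, against 11.8% of all features. Against a 1.2-fold change limma called only Myc of the 3, with adjusted p = 0.315 for Ccl2 and 0.0968 for Ccl3. The call of Ccl3 was lost without LIF/PD replicate 1 (adjusted p = 0.0675), and with the covariate those of Ccl3 (0.195) and Ccl2 (0.122) were lost. In the LIF/PD arrays 0 of the 10 passed against control by limma and 1 had an unadjusted p under 0.05, where 0.065% and 6.59% of all features did, with a median of 0.03, against 0.02 over all genes. The remaining 7 targets, most of them cytokine genes, lay below the filter. In the GCSF arrays the 3 falls stood beside a rise of Zfp36 and a fall of Zfp36l2, and beside the fall of the ERK-dependent genes given above; the part of any of these in the levels of Myc, Ccl2 and Ccl3 was not tested.

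**Figure D4:**
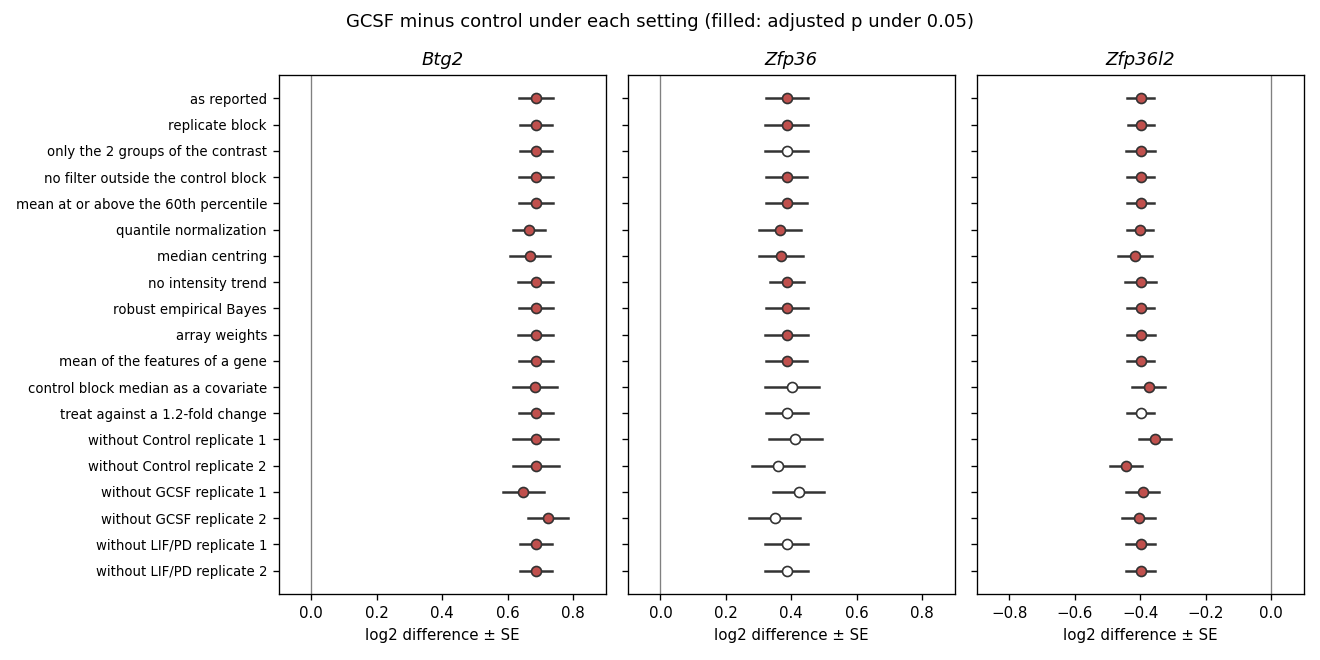
Log2 difference ± SE of GCSF minus control for Btg2, Zfp36 and Zfp36l2 as reported and under 18 other settings of the fit; filled points passed an adjusted p under 0.05. Btg2 passed in every setting shown, Zfp36l2 in all but the test against a 1.2-fold change, and Zfp36 in 9 of the 18.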

How the data were processed

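Total RNA of 6 samples was prepared with TRIzol and put on arrays with biotin as the 1 label, per the labels' protocols. The authors deposited 1 table of log2 intensities, read as log2 because they lie between 2.29 and 14.50. Background correction, summarization and normalization are not given in the sources used here, and the values were used as deposited. Genes were named from the platform annotation, symbols updated through gene IDs of RefSeq on GRCm38.p6. The 6573 features with identifiers below the lowest annotated one were taken as a control block and left out. Of the other 28187, the 16912 whose mean reached the 40th percentile (6.70) entered the tests. Limma 3.58.1 in R 4.3.3 fitted 1 mean per group to all 6 arrays with an intensity trend (3 residual and 8.40 total degrees of freedom), with two-sided p-values. Exact permutation of 2 arrays against 2 cannot go below p = 0.333, so it was not used. Whether replicate arrays stem from separate cultures is not in the labels, and the p-values then reflect only how much these arrays vary, which may be technical. For arrays the number, 2 per group, limits the precision.

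For lists, a gene with several features counted through the brightest on average. All members were named, and of each list every called gene or up to 2 with the smallest p. The members and lists were chosen with earlier results of these data known. On simulated data, the fit was tested for GCSF minus control with 16912 features, where 26.2% of 1.2-fold, 93.7% of 1.5-fold and 99.8% of 2-fold changes were recovered and 5.18% of calls were false. The simulated noise was independent between arrays and followed the spread model that the fit itself assumes. These shares therefore do not show how many calls on the real arrays are false. Alternatives are given in the closing section. Promoter windows came from RefSeq on GRCm38.p6.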

Additional observations from a re-analysis of the deposited data

How the results depend on the processing

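Across 18 alternative settings, the members' differences gave 375 values, of which 362 stayed on the same side of the threshold, 13 lost a call and 0 gained one. The sign changed in 16 of the 375, over 9 differences that were called neither as reported nor in that setting and were at most 0.0850 from 0 as reported and 0.0667 in that setting (log2); 0 called differences changed sign. The replicate number as a block left the calls at 3 (GCSF minus control), 0 (LIF/PD minus control) and 2 (GCSF minus LIF/PD). The deviations of same-numbered arrays correlated at 0.01 to 0.10 over the tested features. With 2 arrays per group, this cannot decide whether same-numbered arrays share a culture or run, and the labels do not say. Against a 1.2-fold change, limma called 1 member (Btg2) in GCSF minus control and 1 in GCSF minus LIF/PD, and 2, 0 and 1 list genes in GCSF minus control, LIF/PD minus control and GCSF minus LIF/PD. With the control block median as a covariate, which costs a degree of freedom, 1 member and 1 list gene were called in GCSF minus LIF/PD. Without an intensity trend 0 list genes were called in LIF/PD minus control. Zfp36 was lost when only the GCSF and control arrays were fitted (adjusted p = 0.0663); the cause was not tested. With each array left out in turn, members called numbered 2 to 2, 0 to 0 and 1 to 2 in GCSF minus control, LIF/PD minus control and GCSF minus LIF/PD, and list genes called 3 to 4, 0 to 1 and 2 to 3; an arm left with 1 array was assumed to vary like the others. Over all features, the 198 calls of GCSF minus control became 125 without a trend, 99 with the covariate, 47 against a 1.2-fold change and 88 to 164 with an array left out. The 143 calls of GCSF minus LIF/PD became 82 with the 2 groups alone, 71, 26, 18 and 30 to 91, and the 11 calls of LIF/PD minus control 1, 8, 1 and 1 to 7 for the same last 4 settings.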
